A study of Mus musculus with 6 samples.

Results

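The kinesin motor family was followed across 6 arrays of mouse neural stem cells, 3 of Spot14 GFP positive and 3 of Spot14 GFP negative cells. Members were genes whose symbol begins with Kif or Kifc and a number and which had at least 1 probe set annotated to no other gene. Of 18193 genes on the array 41 met this rule, through 104 probe sets, and each was represented by its brightest probe set over the 6 arrays. By their known roles 14 were placed among mitotic, 15 among transport and 8 among ciliary kinesins, and 4 in none of these. Among these 4 is Kif2a, which acts in neurons and also at spindle poles. Total RNA was hybridised to Affymetrix mouse genome arrays, and values are log2 expression after GCRMA, in which readings under about 4 lie near background. Spot14 is the product of Thrsp, and GFP (green fluorescent protein) status is the only difference between the groups that the labels give. The labels name both groups neural stem cells and call the arrays biological replicates. Strain, age, culture or tissue of origin, what drives the GFP and how cells were separated are not given in the sources used here.

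Kinesins are motor proteins that use ATP to walk along microtubules or to take them apart. In dividing cells a subset separates the spindle poles, aligns chromosomes and drives cytokinesis, and its genes are known to be transcribed mostly in G2 and M phase. Other members carry vesicles, organelles and RNA through the cytoplasm, above all along axons and dendrites, and a further set builds and serves the primary cilium, through which neural stem cells receive Hedgehog signals.

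Mitotic kinesins were lower in GFP positive cells and 2 transport kinesins associated with neurons were higher. Of 10 tested mitotic kinesins 6 fell (Kif2c, Kif4, Kif23, Kif18b, Kif11 and Kif20b), where 2.11% of all tested genes were called lower. Kif4 and Kif18b were tested through the GFP negative arrays alone, since all 3 GFP positive arrays read under the minimum. Their presence among the tested genes thus already rested on the difference. Of the other 8 mitotic kinesins 4 fell, among them Kif2c, which read log2 4 or more on GFP positive replicate 2 alone (4.53). Of 14 tested transport kinesins 2 rose (Kif1a and Kif5a), where 2.35% of all tested genes were called higher. None of the 5 tested ciliary kinesins passed; at an unadjusted limma p under 0.05, 1 was higher (Kif3b) and 0 lower, where 9.92% and 8.28% of all tested genes were. A call is a limma adjusted p under 0.05 over the 10531 genes that read log2 4 or more on at least 3 of 6 arrays, and 31 kinesins met that minimum. The calls depended on single arrays, as given with each group, and on the settings: without the minimum only Kif20b passed, and 0 kinesins passed with the 3′ to 5′ signal difference of the control probe sets as a covariate or with the replicate number as a block.

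The promoters of the called mitotic kinesins are shown because genes of G2 and M phase are known to share a short element near their start, the cell cycle genes homology region, whose usual core is TTTGAA, often with CCAAT boxes upstream. RefSeq promoter windows of GRCm38.p6, from 250 bases before to 50 after the annotated start, were found for 33 of the 41 kinesins. Each line below gives the 110 bases before and the 25 after the start, 5′ to 3′ on the gene's strand, with matches to TTTGAA or CCAAT on either strand in capitals (TTCAAA and ATTGG are the matches on the other strand). The last line, Kif1a, is a transport kinesin called higher.
Kif2c, chr4:117178748-117178882, minus strand: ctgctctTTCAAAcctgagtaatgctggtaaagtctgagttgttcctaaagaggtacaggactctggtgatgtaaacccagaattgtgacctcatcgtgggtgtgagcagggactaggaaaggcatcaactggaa
Kif4, chrX:100625955-100626089, plus strand: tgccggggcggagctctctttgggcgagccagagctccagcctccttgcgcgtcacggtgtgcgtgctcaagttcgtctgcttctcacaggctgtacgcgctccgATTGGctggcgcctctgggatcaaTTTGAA
Kif23, chr9:61946775-61946909, minus strand: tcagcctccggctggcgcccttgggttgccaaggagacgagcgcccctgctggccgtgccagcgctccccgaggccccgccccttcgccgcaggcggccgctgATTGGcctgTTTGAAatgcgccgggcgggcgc
Kif18b, chr11:102925100-102925234, minus strand: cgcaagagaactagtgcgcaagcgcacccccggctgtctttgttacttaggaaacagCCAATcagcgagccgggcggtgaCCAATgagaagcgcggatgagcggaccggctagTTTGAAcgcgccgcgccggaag
Kif11, chr19:37376272-37376406, plus strand: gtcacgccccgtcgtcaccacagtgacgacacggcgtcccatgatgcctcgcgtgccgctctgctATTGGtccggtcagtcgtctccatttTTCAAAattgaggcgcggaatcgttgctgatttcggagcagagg
Kif20b, chr19:34922248-34922382, plus strand: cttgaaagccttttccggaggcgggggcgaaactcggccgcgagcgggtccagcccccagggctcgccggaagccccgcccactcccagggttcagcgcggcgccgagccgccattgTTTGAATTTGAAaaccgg
Kif1a, chr1:93101850-93101984, minus strand: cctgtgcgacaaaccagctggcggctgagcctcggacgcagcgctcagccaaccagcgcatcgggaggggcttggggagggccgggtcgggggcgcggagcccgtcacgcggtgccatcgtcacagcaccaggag

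TTTGAA lay in 11 of 13 mitotic kinesin windows (84.6%), in 1 of 10 transport windows, in 1 of 9 ciliary windows and in 17.9% of all 32851 promoter windows. All 6 called mitotic kinesins had it. CCAAT lay in 9 of the 13 mitotic windows (69.2%) and in 5 of the 9 ciliary windows (55.6%). It was in 2 of the 10 transport windows and in 37.4% of all windows. Both words together were found in 8 mitotic windows, in 1 ciliary window, in 0 transport windows and in 7.0% of all. Within 30 bases of the start on either side, a distance chosen after the matches were seen, TTTGAA was in 8 mitotic windows, in 0 transport or ciliary windows and in 2.9% of all. In Kif11 it began 19 bases before the start, in Kif23 at base 3, in Kif18b at base 4 and in Kif20b at bases 8 and 14 after it, while in Kif2c it lay 103 bases upstream. The matches shown do not overlap each other, and a match is a description of the letters, not of a bound site. Mitotic kinesins that did not pass the test or were not tested had the hexamer too (Kif22, Kifc1, Kif14, Kif15 and Kifc5b), so its presence did not separate called from uncalled members. The median G and C content of the windows was 60.7% for mitotic, 69.5% for transport and 52.7% for all promoters. Kif1a has 2 annotated starts; the window shown, at the upstream one, held neither word, and the other held TTTGAA once. No window was found for Kif5a.

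**Figure D1:**
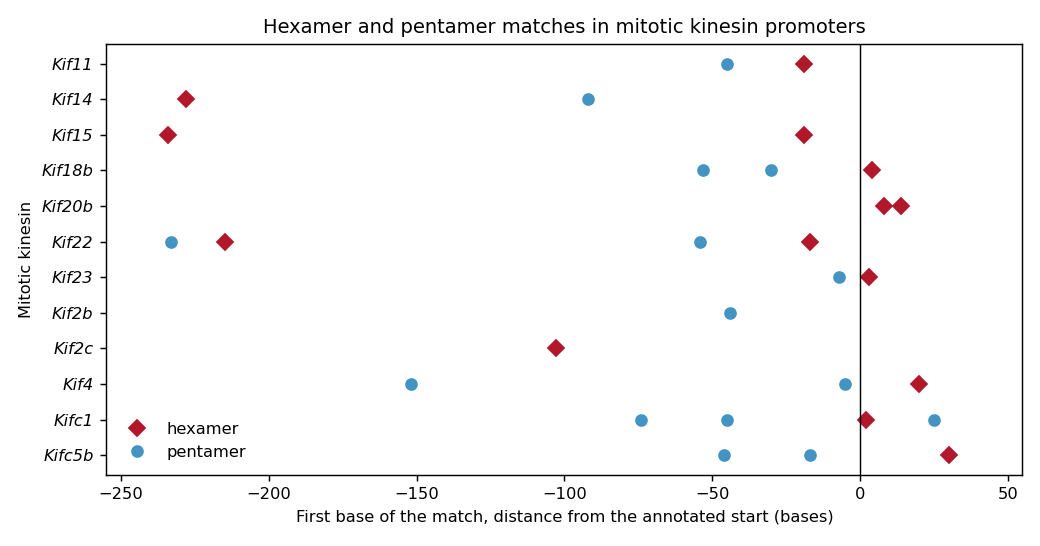
First base of each match to the hexamer TTTGAA (diamonds) and the pentamer CCAAT (circles), in bases from the annotated start at 0, for the 12 mitotic kinesins with a match in the 300-base window. In 8 genes a hexamer lies within 30 bases of the start, and the pentamers mostly lie upstream of it.

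The study's arrays set the limits for all values that follow. Thrsp was 14.1 to 14.3 on the GFP positive and 13.4 to 13.7 on the GFP negative arrays. Of 10 neural stem cell markers 8 were bright on all arrays, while Hes5 read 4.35 to 5.26 and Prom1 lay near background; their mean was 10.8 with GFP signal and 10.4 to 10.5 without. Of the 9 tested markers 7 were higher with groups apart, where 13.8% of all tested genes were. In the limma test 2 passed, Gfap and Nr2e1, where 2.35% of all tested genes were called higher. The astroglial filament gene Gfap had means of 11.8 against 10.3 (2.83-fold higher, limma adjusted p = 0.0188). The nuclear receptor gene Nr2e1 had 11.5 against 10.6 (a difference of 0.86, limma adjusted p = 0.0308). Gfap and Nr2e1 rose in the same comparison in which the mitotic kinesins fell, while the markers Nes (−0.49) and Fabp7 (−0.01) had negative differences. The part of these markers in the kinesin results was not tested. Gfap passed without any 1 of the GFP negative arrays and Nr2e1 only without GFP negative replicate 3; with other arrays left out the limma adjusted p was at most 0.0999 and 0.150. GFP negative replicate 3 stood apart from its group, with a score of 36.8 on the second principal component against −31.9 and −33.8. In the Gapdh control, 3′ signal exceeded 5′ signal most on GFP negative replicate 2, by 2.33 on the log2 scale against 1.14 to 1.65 elsewhere. In bulk RNA, fewer dividing cells and less message per dividing cell cannot be told apart.

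The motors that build the bipolar spindle come first. Kif11, the Eg5 motor that pushes spindle poles apart, read 5.66, 6.95 and 5.60 on GFP positive replicates 1 to 3 and 7.96, 8.64 and 7.54 on their GFP negative counterparts. GFP positive replicate 2 was the highest of its group and still below every GFP negative array. The difference was −1.98 (SE 0.43, 3.94-fold lower; limma adjusted p = 0.0496), at the edge of the threshold; it rose to 0.0522 with each array at a common median and to 0.0504 without probe sets of suffix _x_at or _s_at. Its other probe sets were lower by 2.37 and 2.01 in difference of log2 means and separated the groups too (limma adjusted p = 0.0372 and 0.0335 in a fit of all 18742 probe sets, in which the brightest had 0.0720). The GFP positive means of these other probe sets, 3.39 and 3.19, lay near background. The dimmer of them met the minimum through the GFP negative arrays alone. Kifc1, the minus-end motor that bundles spindle poles, read 6.70, 6.90 and 6.42 against 6.99, 7.84 and 8.89, a difference of −1.23 (SE 0.45, limma adjusted p = 0.195). The groups did not overlap, but GFP negative replicate 1 lay only just above the highest GFP positive array. Its only probe set carries a suffix for probes shared with related transcripts, and Kifc5b is a near-identical copy, so signal of the pair may be mixed. Kif15, a motor that works beside Kif11, lay near background on every array (2.26 to 2.34) at its 1 probe set.

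Among motors of chromosome arms and microtubule ends Kif2c, Kif4 and Kif18b fell, with GFP positive means near background. Kif2c, the depolymerase MCAK of centromeres, read 3.39, 4.53 and 3.13 in GFP positive and 5.46, 6.00 and 6.70 in GFP negative cells. The difference was −2.37 (SE 0.44, limma adjusted p = 0.0311). Its only probe set above the minimum carries a suffix for probes that may also match other transcripts. Kif4, a chromokinesin that also organises the midzone, read 3.05, 3.54 and 3.10 against 4.90, 5.74 and 6.11, a difference of −2.35 (SE 0.33, limma adjusted p = 0.0153). Kif18b, which acts on the plus ends of astral microtubules, read 3.15, 3.47 and 3.16 against 4.79, 5.34 and 6.03 (−2.13, SE 0.32, limma adjusted p = 0.0163). In these 3 genes the GFP positive mean lay under log2 4, near background, so the size of the difference rests on the background estimate of GCRMA and is not ranked against other kinesins. With every reading under log2 4 raised to 4, Kif2c was at least 3.67-fold, Kif4 at least 2.99-fold and Kif18b at least 2.61-fold lower. Their groups did not overlap, and GFP negative replicate 3 was the highest array for each.

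Kif18a and Kif22, motors that hold chromosomes at the spindle equator, moved less at their brightest probe sets. Kif18a read 6.87, 7.18 and 6.93 against 7.53, 7.67 and 7.41, a difference of −0.55 (SE 0.18, limma adjusted p = 0.154) with groups that did not overlap. Kif22 read 6.76, 7.43 and 6.98 against 7.45, 7.65 and 7.43, with GFP positive replicate 2 inside the GFP negative range (−0.45, SE 0.22, limma adjusted p = 0.347). The other 2 Kif22 probe sets separated the groups, with GFP positive means of 5.90 and 5.92 against 7.69 and 7.27. Their differences of −1.78 and −1.35 did not pass in the fit of all probe sets (limma adjusted p = 0.101 and 0.253), so the gene's size of change depended on the probe set read.

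Of the cytokinesis motors, Kif23, the MKLP1 subunit of centralspindlin, read 5.88, 5.28 and 4.75 against 6.99, 7.53 and 8.32, a difference of −2.31 (4.96-fold, SE 0.40, limma adjusted p = 0.0268). Kif20b, which serves the last step of cell separation, varied little within the groups, at 5.28, 5.46 and 5.05 against 6.51, 6.63 and 6.66, with an SD of 0.21 and 0.082 (n = 3 each). The difference was −1.33 (2.52-fold, SE 0.18, limma adjusted p = 0.0147), and its other tested probe set gave −2.11. That probe set read 3.26, 3.97 and 3.83 against 5.72, 5.51 and 6.18. It thus met the minimum through the GFP negative arrays alone. Kif20a, the MKLP2 motor that carries the chromosomal passenger complex to the midzone, read 5.75, 5.18 and 4.29 against 6.43, 6.08 and 7.79. Its difference of −1.69 exceeded that of Kif20b, but the spread was wider and it did not pass (SE 0.52, limma adjusted p = 0.131). Kif14, a further cytokinesis motor, lay near background on all arrays at its single probe set (2.59 to 2.80), as did the testis-type Kif2b (2.50 to 2.76).

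**Figure D2:**
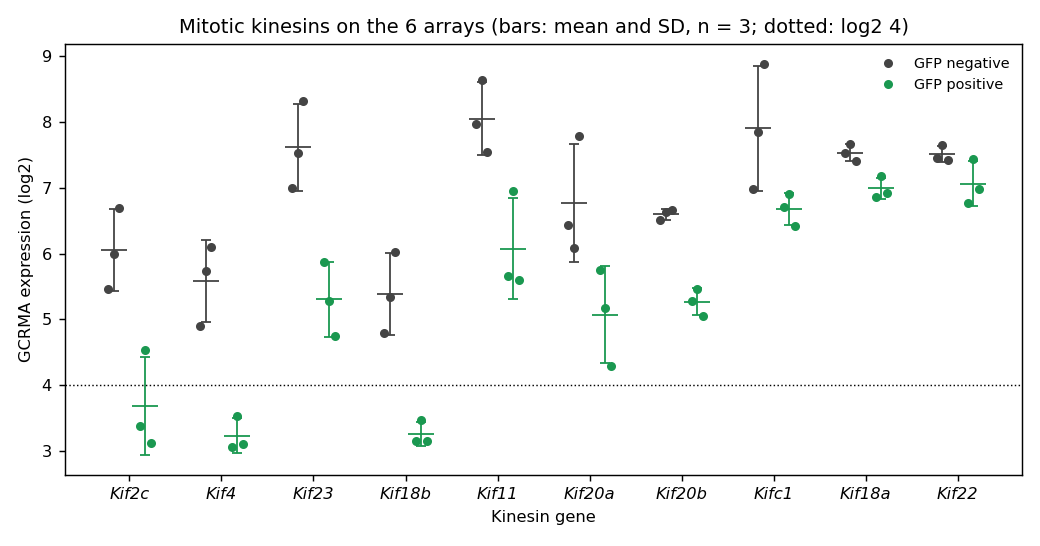
Log2 GCRMA expression of the 10 tested mitotic kinesins on each array, GFP negative in grey and GFP positive in green, with the mean and SD of 3 arrays. The green points lie below the grey ones in every gene except Kif22, where 1 green point reaches into the grey range. The GFP positive means of Kif2c, Kif4 and Kif18b lie near background, under the dotted line at log2 4. For Kif2c, GFP positive replicate 2 lies above that line (4.53).

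As a group the 10 tested mitotic kinesins had a median difference of −1.84, from −2.37 to −0.45, against a median of 0.0049 over all tested genes. It was −1.48 with Kif2c, Kif4 and Kif18b at the log2 4 minimum, and −1.51 over the 8 kinesins with any GFP positive array at log2 4 or more. Among these 8, Kif2c reached log2 4 on GFP positive replicate 2 alone (4.53), so its place still rested mostly on the GFP negative arrays. Kif2a, placed in no role group though it also acts at spindle poles, had a difference of 0.13 and is not among the 10. The groups did not overlap for 9 of the 10, all lower in GFP positive cells, where 11.5% of all tested genes were apart in that direction; among the 8 it was 7. All 15 probe sets of these genes above the minimum were negative. Of the 15, 8 were called in the fit of all probe sets, where 1.07% of probe sets were called lower. Those of Kif4 and Kif18b, the dimmest of Kif11 and the dimmer tested one of Kif20b met the minimum through the GFP negative arrays alone. Their negative sign thus followed from the filter, and all of them are among the 8. The other 4 mitotic members were not tested; 3 read 2.26 to 2.80 and Kifc5b read 3.05 ± 0.05 against 3.73 ± 0.48 (SD, n = 3), so the count above is not one over all mitotic kinesins. Leaving out GFP positive replicate 1, 2 or 3 gave 0, 3 and 0 called mitotic kinesins, and leaving out GFP negative replicate 1, 2 or 3 gave 5, 0 and 6. Of all genes, 0%, 0.627% and 0% were called lower in the former fits and 1.86%, 0.342% and 4.21% in the latter. Where no mitotic kinesin was called, limma still counted 7 lower at an unadjusted p under 0.05 (5.02% to 7.01% of all genes in those fits), and all 10 were negative in each of the 6 fits. Kif2c and Kif4 passed without GFP positive replicate 2 or GFP negative replicate 1 or 3, Kif11 without GFP positive replicate 2 or GFP negative replicate 3, and Kif18b, Kif20b and Kif23 without GFP negative replicate 1 or 3. In the remaining fits the limma adjusted p was at most 0.189 (Kif11), 0.137 (Kif2c), 0.105 (Kif23), 0.0939 (Kif18b), 0.0880 (Kif4) and 0.0876 (Kif20b).

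Arrays of the same group differed in how far these motors departed from their mean. The median deviation of the mitotic kinesins was −0.62, −0.43 and −1.24 on GFP positive replicates 1 to 3, against 0.50, 0.85 and 1.65 for GFP negative cells. The array that stood apart, GFP negative replicate 3, thus had the highest mitotic kinesin signal; without it the median difference was −1.55. The medians of the transport kinesins were 0.08 to 0.23 on GFP positive and −0.22 to −0.19 on GFP negative arrays, a smaller and more even shift.

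**Figure D3:**
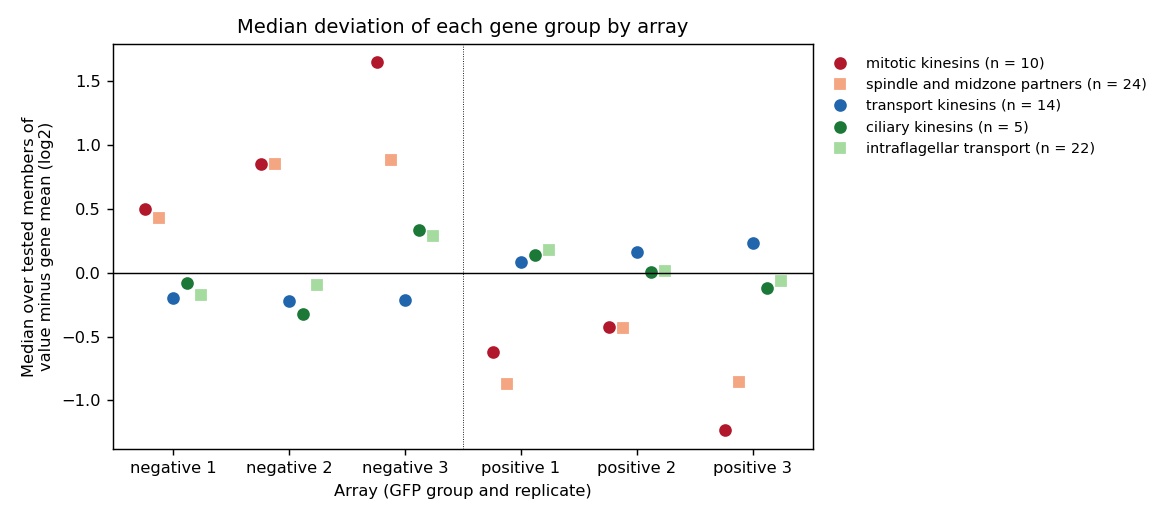
Median over tested members of each gene's value minus its mean over the 6 arrays (log2), by array, for mitotic, transport and ciliary kinesins (circles) and for spindle partners and intraflagellar transport genes (squares). Mitotic kinesins and spindle partners lie at 0.43 to 1.65 on the GFP negative and −1.24 to −0.43 on the GFP positive arrays, transport kinesins take the opposite sign on a smaller scale, and the ciliary medians have both signs within each group.

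Proteins that work with the mitotic motors were given by a list of 25 symbols for spindle and midzone genes, of which Sgol1 and Sgo1 are the older and newer symbol of the same gene; 24 were on the array and tested. Of these 15 fell and 0 rose, with a median difference of −1.50, where 2.11% of all tested genes fell. Plk1 was the 1 gene tested through the GFP negative arrays alone. Cenpe, a kinetochore motor of the kinesin superfamily whose symbol falls outside the rule, read 5.21, 5.71 and 4.21 against 6.65, 7.88 and 8.24 (−2.55, SE 0.51, limma adjusted p = 0.0383). Cep55, the midbody scaffold needed for abscission, was 4.30-fold lower (−2.10, limma adjusted p = 0.0137), and Hmmr, a spindle pole protein, was 4.24-fold lower (−2.08, limma adjusted p = 0.0151). Spag5, a spindle protein also known as astrin, went the other way at 9.78, 9.88 and 9.94 against 8.92, 9.17 and 9.20; it was named after its values were seen and did not pass (0.77, limma adjusted p = 0.0533). Leaving out GFP positive replicate 1, 2 or 3 gave 0, 6 and 0 partners called lower, and leaving out GFP negative replicate 1, 2 or 3 gave 11, 1 and 16, beside the shares of all genes given above for these fits. Without GFP negative replicate 3, Spag5 and Ckap5 were called higher, where 7.61% of all genes were. In the fits with no partner called, 18 were lower at an unadjusted limma p under 0.05, against 6.67% and 5.02% of all genes. Cep55 and Hmmr passed without GFP positive replicate 2 or GFP negative replicate 1 or 3 (otherwise limma adjusted p at most 0.0866), and Cenpe without GFP negative replicate 1 or 3 (otherwise at most 0.137).

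Among transport kinesins, the higher members are known from neurons. Kif1a, which carries synaptic vesicle precursors and dense core vesicles, read 8.44, 8.51 and 8.24 in GFP positive and 7.00, 6.87 and 7.64 in GFP negative cells. It was 2.34-fold higher (1.23, SE 0.24, limma adjusted p = 0.0363), and the groups did not overlap. Its dimmer probe set had the opposite sign, with 5.49, 5.19 and 4.54 against 4.79, 5.20 and 6.85 and groups that overlapped (−0.54, limma adjusted p = 0.703 in the fit of all probe sets, in which the brighter had 0.0559). With the mean of the pair in place of the brighter, the difference of Kif1a was 0.34 and no longer passed (limma adjusted p = 0.697), and Kifc2 passed instead. Kif5a, the neuronal heavy chain of conventional kinesin, read 7.04, 7.03 and 7.44 against 5.70, 6.05 and 6.29 and was 2.23-fold higher (1.16, SE 0.22, limma adjusted p = 0.0341). Its other 2 probe sets lay near background. Both calls held only without GFP negative replicate 3; with any other array left out the limma adjusted p was at most 0.159 for Kif1a and 0.154 for Kif5a.

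The other heavy chains of conventional kinesin, the motor of mitochondria and vesicles, did not pass. Kif5c, also a neuronal form, read 6.41, 6.92 and 6.63 against 5.45, 6.05 and 6.31, a difference of 0.72 with groups apart (limma adjusted p = 0.207). Kif5b, the ubiquitous form, read 12.52, 13.22 and 13.08 against 13.60, 13.57 and 12.11. Its groups overlapped, GFP negative replicate 3 being the lowest of all arrays, and the difference was −0.16 (95% interval −1.15 to 0.84). Its 6 probe sets gave differences from −0.56 to 0.45, so no direction held across the gene.

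Of the kinesin-3 relatives of Kif1a, Kif1b, a carrier of mitochondria and synaptic vesicle precursors, read 12.56, 12.09 and 12.04 against 12.31, 11.26 and 11.45 (0.56, SE 0.31, limma adjusted p = 0.411). Its 7 tested probe sets ran from −0.67 to 1.40, and the groups were apart only in the one at 0.76. Kif1c read 9.68, 9.71 and 9.89 against 9.39, 9.37 and 9.41, a difference of 0.37 with groups apart (limma adjusted p = 0.282). Kif13a, a motor of endosomes and melanosomes, read 9.35, 9.30 and 9.43 against 9.93, 10.18 and 9.33 (−0.45, limma adjusted p = 0.397), and its 5 probe sets gave −0.99 to 0.02. GFP negative replicate 3 was again the array that joined the groups.

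Kifc2, a minus-end motor of dendrites, read 7.02, 7.38 and 7.60 against 6.75, 6.72 and 6.20, with groups apart and a difference of 0.78 (SE 0.24, limma adjusted p = 0.127); its other probe set gave 0.90 and was apart too. Kif21a, a motor that restrains microtubule growth, read 8.90, 8.87 and 9.23 against 9.16, 8.22 and 8.50 (0.38, limma adjusted p = 0.551), and its other probe set gave −0.02. Kif3c, a neuronal partner of Kif3a, differed by −0.15, with 9.07, 9.21 and 9.10 against 9.09, 9.09 and 9.64, and its other probe set gave 0.05. The remaining transport members Kif16b (0.38), Kif13b (0.08), Kifc3 (0.08) and Kif21b (0.08) had overlapping groups at their brightest probe sets, and Kif28 lay near background. The other tested probe set of Kif16b gave 0.77 with groups apart (limma adjusted p = 0.224 in the fit of all probe sets).

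**Figure D4:**
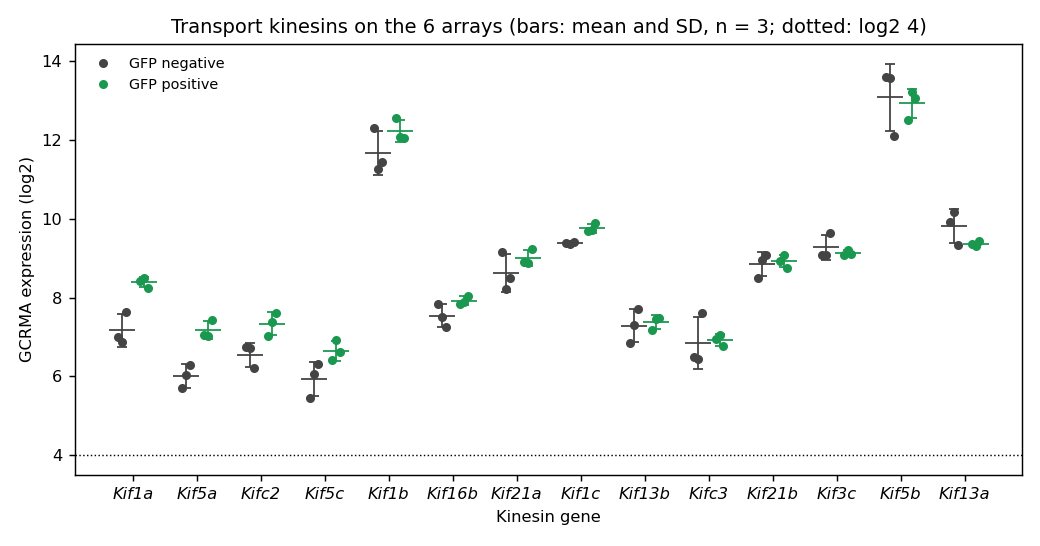
Log2 GCRMA expression of the 14 tested transport kinesins on each array, GFP negative in grey and GFP positive in green, with the mean and SD of 3 arrays, ordered from the largest positive to the largest negative difference. Green points lie wholly above grey ones in Kif1a, Kif5a, Kifc2, Kif5c and Kif1c, and the grey points of Kif5b and Kif13a spread around the green ones.

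As a group the transport kinesins had a median difference of 0.38 (1.30-fold higher), with 11 of 14 positive. The groups did not overlap for 5 of the 14, all higher in GFP positive cells, where 13.8% of all tested genes were apart in that direction. With 1 array left out the number called higher was 0 in each fit except that without GFP negative replicate 3, where it was 2 and Kif13a was called lower (limma adjusted p = 0.0387); in that fit 7.61% of all genes were called higher and 4.21% lower. At an unadjusted limma p under 0.05 those fits counted 2 to 6 higher, against 4 in the full fit; the shares of all genes were 6.31% to 18%, and 9.92% in the full fit. Of 10 neuronal markers 4 were tested and 0 passed, with 2 positive and 2 negative. Eno2, a neuronal enolase, read 9.52, 9.46 and 9.75 against 9.19, 9.28 and 8.99, with groups apart (0.43, limma adjusted p = 0.265), while Map2 and Nefl had negative differences. Averaged over all 10, the arrays with GFP signal read 5.05 to 5.09 and those without 5.10 to 5.31. Rbfox3, Syt1, Dcx and Stmn2 lay near background in both groups. Snap25 was not tested and read 2.84, 2.96 and 3.02 against 3.92, 4.26 and 3.81, near background but with groups apart and GFP positive cells lower. The part of neuronal cells in the transport result was not tested.

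Ciliary kinesins showed no common direction. Kif3a, a motor subunit of anterograde intraflagellar transport, read 10.52, 9.97 and 9.91 against 9.59, 9.85 and 10.37 (0.20, 95% interval −0.44 to 0.83), and its 4 probe sets were all between 0.20 and 0.54. Kif3b, its partner in the same motor, read 8.31, 8.65 and 8.42 against 8.16, 7.41 and 8.05, with groups apart (0.58, SE 0.24, limma adjusted p = 0.263). The other tested probe sets of Kif3b gave 0.09 and 0.15 with groups that overlapped (limma adjusted p = 0.904 and 0.761 in the fit of all probe sets). Kif7, the regulator of Gli factors at the ciliary tip, read 6.16, 5.81 and 5.49 against 6.46, 5.81 and 7.08 (−0.63, limma adjusted p = 0.400). Kif24, which restrains cilium assembly at the mother centriole, differed by −0.39 (limma adjusted p = 0.524). Kif6 read 5.26, 5.59 and 5.64 against 4.78, 2.77 and 5.15; its difference of 1.26 came with an SD of 1.28 among GFP negative arrays, where replicate 2, the array with the largest 3′ excess, was near background (limma adjusted p = 0.310). Kif9 (3.72 ± 0.70 against 2.94 ± 0.55), Kif17 (2.59 ± 0.22 against 3.14 ± 0.70) and Kif27 (2.47 ± 0.03 against 2.47 ± 0.03; SD, n = 3) were not tested. The median of the 5 was 0.20, with 2 negative and 3 positive, and it ran from 0.0029 without GFP positive replicate 1 to 0.41 without GFP negative replicate 3. Ependymal markers, which would come with motile cilia, averaged 3.63 to 3.80 over 10 genes with the GFP signal and 3.30 to 3.85 without it, 6 of them near background. The 4 tested markers all had positive differences, from 0.18 to 0.98 with a median of 0.36, and 0 passed. Cfap126, a protein of motile cilia, had the highest of these, at 6.98, 6.81 and 6.52 against 5.25, 5.32 and 6.79 (limma adjusted p = 0.269). Without GFP negative replicate 3 all 4 were higher at an unadjusted limma p under 0.05, where 18% of all genes were, and Cfap126 was called. The part of ependymal cells in the ciliary values was not tested.

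Of the 4 members in no role group, Kif2a, a depolymerase of neurons and spindle poles, read 10.82, 11.02 and 11.15 against 11.10, 10.99 and 10.51 (0.13, 95% interval −0.38 to 0.64), and its 3 tested probe sets gave 0.13, −0.10 and −0.43. Its relative Kif2c, named above, fell by 2.37 in the same comparison. Kif26a, an atypical kinesin, read 4.77, 4.39 and 4.38 against 4.19, 3.69 and 3.78, just above the minimum, with groups apart (0.63, limma adjusted p = 0.168). Kif12 and Kif26b lay near background. Over the whole family 10 members were not tested, and their values ran from 2.26 to 4.40.

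**Figure D5:**
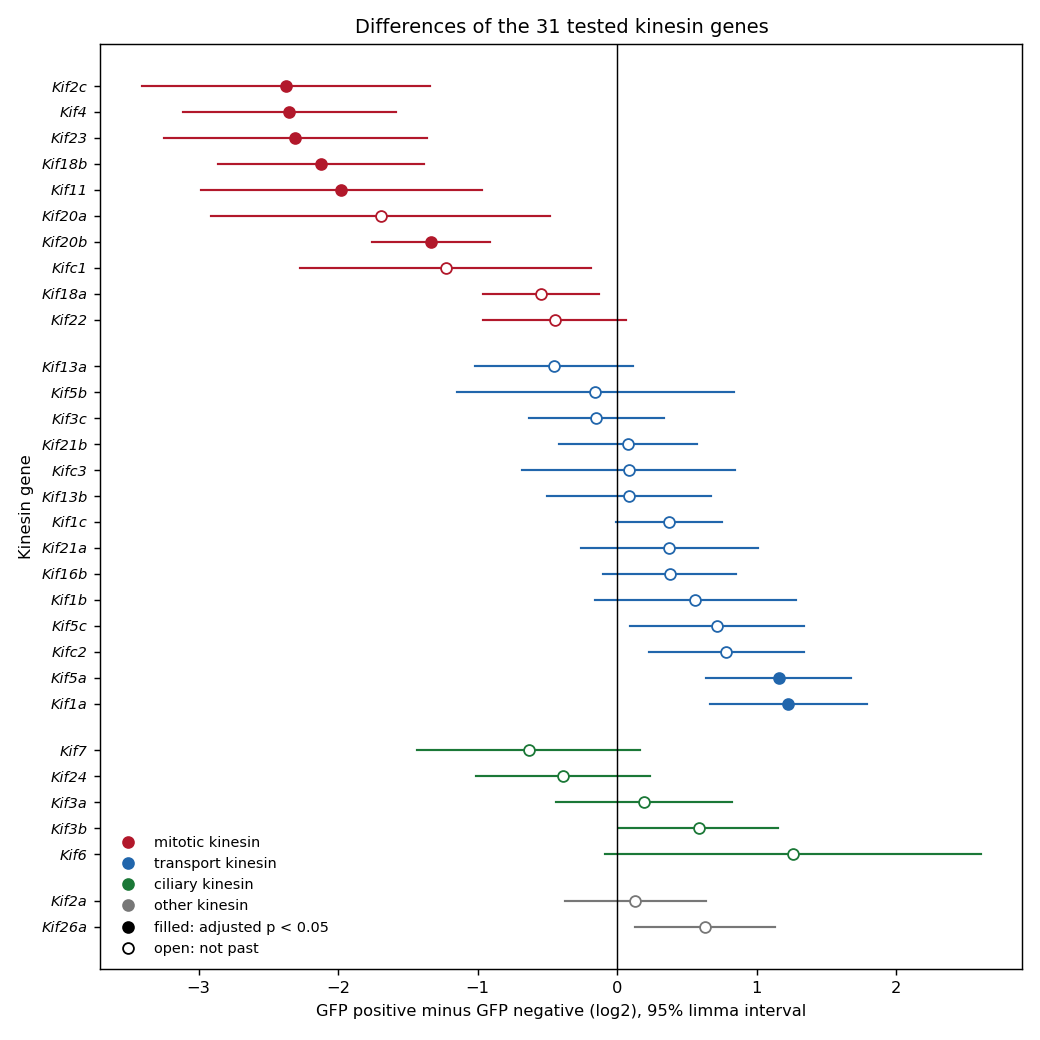
Difference between GFP positive and GFP negative cells (log2) with its 95% limma interval for the 31 tested kinesins, by role; filled points passed an adjusted p of 0.05. The 10 mitotic kinesins all lie left of 0, from −2.37 to −0.45, transport kinesins run from −0.45 to 1.23 and ciliary kinesins from −0.63 to 1.26. Kif2a, which also acts at spindle poles, is placed with the other kinesins at 0.13.

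The other genes of the motor systems were read from fixed lists. For the unadjusted counts below, 9.92% of all tested genes were higher and 8.28% lower at a limma p under 0.05. Of 19 tested cargo adaptors, such as the kinesin light chains, 0 passed, with a median of 0.16 and 1 lower at an unadjusted limma p under 0.05; the brightest, Trak1 (0.23, limma adjusted p = 0.596), links kinesin to mitochondria, and Kifap3 (0.31, limma adjusted p = 0.415) is the third subunit of the Kif3 motor. Of 22 tested intraflagellar transport genes 0 passed (median 0.05; 2 higher at an unadjusted limma p under 0.05), and the brightest were Ift27 (0.19) and Ift140 (−0.08). Of 22 tested subunits and regulators of dynein, the motor that runs opposite to most kinesins, 0 passed (median 0.08; 1 higher at an unadjusted limma p under 0.05), and the brightest were Dynll1 (−0.37) and Dynlt3 (0.27). Without GFP negative replicate 3, 2 cargo adaptors (Klc3 and Kifbp) and 1 dynein gene (Dctn1) were called higher, where 7.61% of all genes were. Without GFP negative replicate 1, 1 cargo adaptor (Hap1) was called lower, where 1.86% of all genes were. Of 10 tested tubulins, which form the track, 1 was called higher, where 2.35% of all tested genes were, and 6 had negative differences. Tuba4a read 10.02, 9.94 and 9.76 against 8.20, 8.14 and 8.72 and was 2.94-fold higher (1.55, SE 0.21, limma adjusted p = 0.0151). Tubb5 (−0.79) and Tubb6 (−0.83) were lower and Tubb2a (0.40) higher with groups apart, and did not pass (limma adjusted p = 0.169, 0.135 and 0.261). They were named after their values were seen. Tuba4a passed without GFP negative replicate 1 or 3 and otherwise had a limma adjusted p of at most 0.0878.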

How the data were processed

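Total RNA of 6 samples was labelled with biotin and hybridised to arrays, 1 per sample, per the labels' protocols. The deposited table holds log2 values from the authors' GCRMA processing (per the submitters' processing notes; neither version nor genome build is stated there). This method models background from probe sequence and equalises distributions, so dim probe sets collect near a floor and a shift of all genes would not be seen.

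Gene names came from the platform annotation: 34945 of 45101 named exactly 1 gene, and all 41 kinesins were found in RefSeq by gene ID with unchanged symbols; 1 probe set shared by Kif27 and another gene was left out. The comparison used lmFit and eBayes of limma 3.58.1 (R 4.3.3) with Benjamini-Hochberg adjustment over 10531 genes; differences are GFP positive minus GFP negative. Tested on simulated data of these 10531 genes, the fit recovered 0%, 24%, 70% and 90% of changes of 0.5, 1, 2 and 3 on the log2 scale, with 6 false calls. Nothing states separate animals or cultures beyond the word biological, so p-values measure the spread between these arrays, whose number limits the precision. Shown with values on each array were kinesins past the threshold, the 2 brightest of each role that did not pass, those with probe sets of both signs and, beyond this rule, further members; of partner lists up to 3 called members a direction, or the 2 brightest. Members and lists were chosen with earlier results of these data known. Alternatives covered the filter, normalization, probe set choice, variance moderation, weights, a block, a 2-fold minimum, a 3′ to 5′ covariate and each array left out.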

Additional observations from a re-analysis of the deposited data

How the results depend on the processing

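The main counts were 6 kinesins lower and 2 higher, among 470 genes called. The medians of mitotic, transport and ciliary kinesins were −1.84, 0.38 and 0.20. Without a filter 1 kinesin was lower (Kif20b) and 0 higher among 294 genes, and the mitotic median was −1.28, as near-background members then count. With a floor of log2 6, 3 were lower (Kif11, Kif20b and Kif23) and the ciliary median was −0.10. The transport median was 0.44 with a common array median and 0.26 with the mean of all probe sets, with which Kif1a lost its call and Kifc2 gained one. Trend and robust settings left 1 higher (Kif1a). Array weights gave 6 higher (Kif1a, Kif5a, Kif5c, Kifc2, Kif3b and Kif6) among 1654 genes called, and 5 lower: Kif11 and Kif2c lost their calls (limma adjusted p = 0.0731 and 0.0714) and Kif13a was called lower (0.0252). With the 3′ to 5′ difference as a covariate 0 were lower and 0 higher among 9 genes called, where 8 and 4 kinesins had an unadjusted limma p under 0.05, and the transport median was 0.21. With single arrays left out, the lower kinesins ran from 0 to 7, the higher from 0 to 2, all genes called from 1 to 1244, and the medians from −1.99 to −1.52 (mitotic), 0.26 to 0.42 (transport) and 0.0029 to 0.41 (ciliary). The sign changed for Kif2a (−0.13 with the mean of all probe sets; −0.049 to 0.25 with an array left out), Kif3c (0.052 with array weights; −0.24 to 0.036 with an array left out) and Kif5b (−0.65 to 0.10 with an array left out, positive without GFP positive replicate 1 or GFP negative replicate 1 or 2); Kif2a and Kif3c turned without GFP negative replicate 3. Quantile normalization and the 2-fold minimum kept all 8 kinesin calls. Leaving out probe sets of suffix _x_at or _s_at left 4 lower, as Kif2c was then not tested and Kif11 did not pass (limma adjusted p = 0.0504); with a common median 5 were lower, without Kif11 (0.0522). The cause of these changes was not tested. Deviations of same-numbered arrays from their group means had correlations of −0.25, 0.05 and −0.50. With 3 arrays per group these cannot show whether the arrays were paired. The numbers were not taken as pairs in the main fit. With the replicate number as a block 0 kinesins were lower and 0 higher among 27 genes called, and 8 and 6 had an unadjusted limma p under 0.05.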
